A study of Mus musculus with 19 samples.

Results

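Chromatin immunoprecipitation followed by sequencing (ChIP-seq) for TEAD in mouse liver gave 36446 peaks after 3 days of YAP induction, and 8568 of them (23.5%, 95% Wilson interval 23.1% to 23.9%) were transient, that is, called at that time only. A peak was counted as transient if it overlapped by at least 1 bp no TEAD peak called after 7 days of induction and none called in livers without the YAP transgene. The members were thus chosen by the TEAD peak calls themselves. Of the other 3 d peaks, 22214 (61.0%) were sustained, with a TEAD peak at 7 d but not in the livers without the transgene, 5433 (14.9%) were constitutive, with a TEAD peak in all 3 lists, and 231 were shared with the livers without the transgene only. The mirror class, late peaks called at 7 d only, held 11185 of the 38984 peaks of that list (28.7%).

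TEAD proteins are DNA-binding factors that bring the coactivator YAP to chromatin, and the Hippo kinases restrain YAP by keeping it out of the nucleus. In the adult liver, YAP activity is low in hepatocytes, and active YAP drives growth, loss of hepatocyte features and the expression of biliary and progenitor genes. A ChIP-seq peak is a stretch where sequenced fragments pile up above the local background, and it measures binding, not expression.

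All mice were of the C57BL/6 background and carried the ROSA26-rtTA-IRES-EGFP allele, a doxycycline-dependent activator that, per the study's methods, required Cre recombinase driven by the albumin promoter and thus acted in hepatocytes. Induced livers also carried tetYAP, an activated YAP transgene, and came from mice on doxycycline food for 3 days (3 samples for TEAD, 3 for YAP) or 7 days (4 for TEAD, 3 for YAP). Control livers (WT, 3 samples for each antibody) lacked tetYAP and had doxycycline food for 7 days, so that the food itself was shared by all groups, but no control had it for 3 days. Whole liver was used, so other liver cell types were present. The TEAD antibody was raised against TEAD4 and, per the study's methods, also recognises other TEAD proteins. The authors merged the replicates of each group before peaks were called. With 1 list per group, no spread between replicates can be given, and the intervals below cover counting error over peaks only. No p-value between time points was computed.

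The merged libraries held 55032002 tags for TEAD at 3 d, 38523843 at 7 d and 35168765 in WT livers, and the YAP libraries at 3 d and 7 d held 36221830 and 34260362. The 3 d TEAD list, from which the members came, was therefore the deepest of the TEAD lists, at 1.43 times the tags of the 7 d list. The caller also used fragments of 207 bp at 3 d and 206 bp at 7 d, but 400 bp in WT livers, so that no WT peak was shorter than 400 bp. In whole tissue, binding in fewer cells and less binding per cell cannot be told apart.

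The sequences below are mostly of the strongest members with a TEAD motif near the summit. They were chosen for the motif and are not typical, since only 12.8% of the members had it within 50 bp of the summit. The motif searched was GGAATG on either strand, the core of the sequence bound by the TEAD DNA-binding domain. Each line gives the bases within 50 bp of the summit of a member, on the plus strand of mm9 and 5′ to 3′. Capitals mark the motif, written as CATTCC where it lies on the minus strand. The first 7 are the strongest members by p-value with a motif within 50 bp of the summit, outside exons. The last is from a member in Heatr7b1 whose edge overlapped a YAP peak at 7 d, although the bases shown lie outside that YAP peak.
Fgfr2 intron, chr7:139550090-139550190: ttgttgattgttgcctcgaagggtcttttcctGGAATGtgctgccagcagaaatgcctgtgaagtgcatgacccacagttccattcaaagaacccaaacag
Klf17 upstream, chr4:117461094-117461194: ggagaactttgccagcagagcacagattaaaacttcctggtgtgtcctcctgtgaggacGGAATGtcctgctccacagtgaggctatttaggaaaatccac
Ephb2 intron, chr4:136337748-136337848: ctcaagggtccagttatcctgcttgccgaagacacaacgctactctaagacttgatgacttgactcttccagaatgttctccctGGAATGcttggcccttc
Adi1 upstream, chr12:29352323-29352423: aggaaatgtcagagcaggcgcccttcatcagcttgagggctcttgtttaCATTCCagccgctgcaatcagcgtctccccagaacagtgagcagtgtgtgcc
Samd8 intron, chr14:22595671-22595771: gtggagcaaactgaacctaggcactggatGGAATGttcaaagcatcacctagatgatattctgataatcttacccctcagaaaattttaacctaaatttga
Col14a1 intron, chr15:55151808-55151908: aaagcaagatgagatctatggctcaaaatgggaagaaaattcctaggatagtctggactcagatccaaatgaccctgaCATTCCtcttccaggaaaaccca
near Ly6i, chr15:74803946-74804046: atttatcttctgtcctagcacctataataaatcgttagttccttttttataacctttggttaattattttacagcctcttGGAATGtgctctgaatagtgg
Heatr7b1 intron, chr1:90154174-90154274: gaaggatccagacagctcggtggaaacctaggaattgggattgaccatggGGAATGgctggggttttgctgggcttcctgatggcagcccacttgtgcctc

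In strength, the members were weak peaks of their own list. This is a description of values on which the calls rest and not a finding. The fold enrichment is the ratio of the pileup of fragments at the summit to the local background. For the members it had a median of 4.34 and ranged from 2.02 to 11.16, against medians of 5.66 for sustained and 12.03 for constitutive peaks. Their −log10 p-value had a median of 10.06 (5.08 to 49), their pileup a median of 28 fragments (20 to 100) and their length a median of 274 bp. When the 3 d list was divided into 10 classes of equal size by fold enrichment, 58.4% of the peaks of the weakest class were transient, then 50.5% and 42.8% of the next classes, down to 0.494% of class 9 (18 peaks) and 0 of 3644 peaks of the strongest class. No peak with a fold enrichment above 11.16 was lost from the 7 d list and absent in WT livers.

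**Figure D1:**
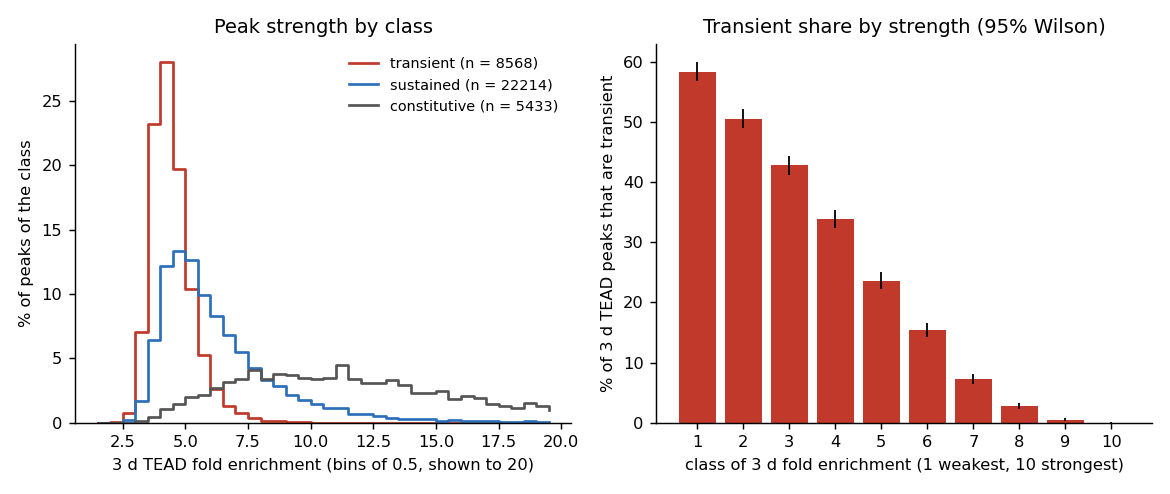
Left, distribution of 3 d TEAD fold enrichment (x axis, ratio to the local background, bins of 0.5) in the transient, sustained and constitutive classes, as the percentage of peaks of the class. Right, percentage of 3 d TEAD peaks that were transient in each of 10 classes of fold enrichment, with 95% Wilson intervals; the share falls from 58.4% in class 1 to 0 of 3644 in class 10.

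To ask how many members would be expected to pass the caller's threshold at the depth of the 7 d library, the pileup and the background of each 3 d peak were multiplied by 0.700, the ratio of the tags of both libraries, and the Poisson p-value was computed again. At this depth 8295 of the 8568 members (96.8%, 96.4% to 97.2%) still had a p-value of 1e-05 or less, and 273 did not. The share was 99.4% for sustained peaks. The median −log10 p-value of the members fell from 10.06 to 7.47, and 1416 members (16.5%) kept a value of 10 or more. This recalculation takes each pileup as exact. It includes neither the sampling of fragments nor any difference in immunoprecipitation between livers.

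The gap from a member to the nearest 7 d TEAD peak had a median of 5055.5 bp. It was at most 500 bp for 1341 members (15.7%, 14.9% to 16.4%), at most 1000 bp for 24.2%, at most 10000 bp for 63.4% and at most 50000 bp for 90.5%. For the mirror class, late peaks, the nearest 3 d TEAD peak was at most 500 bp away in 10.6% and at most 10000 bp away in 53.9% of cases. The median gap of the members to the nearest WT peak was 58475.5 bp, but the WT list held 5695 peaks against 38984 at 7 d, and gaps to a shorter list are longer. Just inside the rule, 3 members near Gcap14, Slc25a33 and Farsa had gaps of 0, 1 and 2 bp to a 7 d peak, with 3 d fold enrichments of 4.10, 4.76 and 3.82. Just outside it, 3 peaks near Fabp6, Zfp715 and Rab1 overlapped a 7 d peak by 1, 1 and 2 bp, with fold enrichments of 4.10, 2.93 and 3.15. These 6 peaks lie on either side of the threshold by at most 2 bp.

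The 10 strongest members by p-value were mostly far from gene starts. The first (chromosome 7, 139549971 to 139550382) lay in an intron of Fgfr2, a receptor for fibroblast growth factors, with a pileup of 75 fragments and a fold enrichment of 10.35. The nearest 7 d TEAD peak was 193076 bp away. A member 22891 bp upstream of Klf17, a Krüppel-like factor, had the highest fold enrichment of the class, 11.16 (chromosome 4, 117460917 to 117461290), but a 7 d peak with a fold enrichment of 12.49 in its own list lay only 914 bp from it. A member in an intron of Ephb2, an ephrin receptor, had a fold enrichment of 8.80, and the nearest 7 d peak was 102924 bp away. Ccnh, a cyclin subunit of the CDK-activating kinase, and Samd8, a sphingolipid enzyme, held intronic members with fold enrichments of 9.58 and 9.26, at 17819 and 21490 bp from the nearest 7 d peak.

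Members near Ctdsp1, Adi1 and Tnfsf9 (the ligand of the T cell costimulator 4-1BB) had fold enrichments of 9.28, 9.52 and 9.52. Near Gm17379 on the X chromosome the pileup was the highest of all members, 100 fragments, but the fold enrichment was only 4.98. Only 1 of the 10 was at a promoter: a peak of 746 bp over the start of Gm129 (now Ciart, a repressor in the circadian clock), with a pileup of 58 fragments and a fold enrichment of 9.52, and 4977 bp from the nearest 7 d peak. Hence, the strongest transient sites were spread over introns and intergenic sequence, with or without a 7 d peak nearby.

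Next, each member was placed relative to genes. A promoter was taken as the 2000 bp before and the 1000 bp after a transcript's start in the annotation, and a member outside promoters counted as gene body if it touched a gene and as intergenic if it did not. Of 8565 members on the numbered chromosomes and X (3 others lay on unplaced sequence), 2621 were at promoters (30.6%, 29.6% to 31.6%), 3476 in gene bodies (40.6%) and 2468 in intergenic sequence (28.8%). The promoter share of all 3 d TEAD peaks was 32.1%. Sustained peaks were at promoters in 32.1% of cases, a difference of −1.55 percentage points (Newcombe interval −2.69 to −0.388). Relative to sustained peaks weighted to the strength classes of the members, 34.7% of which were at promoters, the difference was −4.07 points (−5.42 to −2.72). This result depended on how overlap was defined. With summits at most 100 bp apart as the criterion, the members had the higher promoter share, by 4.75 points (3.70 to 5.81), and with a −log10 p-value of at least 10 in all TEAD lists the difference was 0.0955 points (−1.21 to 1.42).

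Among the members, the promoter share fell with strength, from 33.3% in the weakest class to 21.5% in class 6, 15.8% in class 8 and 1 of 18 peaks in class 9. In the sustained class it was 34.8%, 32.6%, 30.5% and 26.9% in the same classes. The late peaks were less often at promoters, in 19.6% of cases. Transient peaks exceeded them by 10.97 points (9.75 to 12.2), not weighted for strength. By summit position, 857 members were in exons, 4291 (50.1%) in genes but outside exons, and 3417 (39.9%) outside genes.

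The next 8 strongest members at promoters of protein-coding genes, after that of Gm129, had fold enrichments of 7.40 to 8.04. Klf15, a Krüppel-like factor that controls gluconeogenesis and amino acid breakdown, held a member 1133 bp upstream of its start with a pileup of 59 fragments and a fold enrichment of 7.79, and the nearest 7 d peak was 1829 bp away. Cyp7a1, the rate-limiting enzyme of bile acid synthesis, held one 161 bp upstream of its start (chromosome 4, 6202714 to 6203076) with a pileup of 52 fragments and a fold enrichment of 7.52. No 7 d peak lay within 9743 bp of it. Slc22a7, an organic anion transporter, and Slc25a1, the mitochondrial citrate carrier, had members 120 and 138 bp upstream of their starts, with fold enrichments of 7.40 and 7.88 and gaps of 13784 and 6020 bp to the nearest 7 d peak.

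The promoter of Aldh1a1, a retinaldehyde dehydrogenase, had a member with a fold enrichment of 8.04, at 1526 bp from a 7 d peak. Coq5, an enzyme of coenzyme Q synthesis, had one with a fold enrichment of 7.72 at 71 bp upstream of its start. The same fold enrichment was listed for a member at the start of Psme2, a proteasome activator subunit next to Rnf31, and for one 946 bp upstream of Larp1b. These last members were 88 and 200 bp from a 7 d peak, so that a peak was still called close by after 7 days.

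YAP peaks were then compared, since the rule did not use the YAP lists. However, the classes differ by the 7 d TEAD call, and TEAD brings YAP to chromatin. A lower overlap of the members with 7 d YAP peaks may therefore follow from the rule itself, to an extent that was not tested. The YAP list at 3 d, the time at which the members were called, held only 110 peaks. With that list, 3 of 8568 members and 2 of 22214 sustained peaks had a YAP peak, a difference of 0.0260 points with an interval that included 0 (−0.00718 to 0.0942). The YAP list at 7 d was longer, with 1478 peaks, and the comparisons that follow use it. Of all 3 d TEAD peaks, 3.57% overlapped a peak of the 7 d YAP list. For the members the count was 6 of 8568 (0.0700%, 0.0321% to 0.153%), whereas it was 529 of 22214 for sustained peaks (2.38%, 2.19% to 2.59%), 756 of 5433 for constitutive peaks (13.9%) and 0.903% for the 11185 late peaks. The members minus the sustained peaks gave −2.31 points (−2.52 to −2.10). The members minus the late peaks gave −0.833 points (−1.03 to −0.654), not weighted for strength. Among sustained peaks outside the YAP-dense domains described next, overlap with YAP rose with TEAD peak strength, from 0.410% in class 1 to 24.2% in class 10, and the members were weak. After sustained peaks were weighted to the members' 10 strength classes, their share was 0.654% and the difference was −0.584 points (−0.738 to −0.430). The difference was thus smaller among peaks of like 3 d strength, with an interval below 0. Weighting by 3 d values cannot remove the dependence on the 7 d TEAD call. No lack of YAP apart from that call can be read from it.

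All 6 members with a 7 d YAP peak were in 1 domain of chromosome 1 (90108498 to 90207542) over Heatr7b1 and the Ugt1a genes, which encode enzymes of glucuronide conjugation. This domain held 60 YAP peaks in WT livers. Of the 6 members, 4 also overlapped a YAP peak of WT livers and 3 one at 3 d, so YAP peaks there were called without the transgene. Their TEAD fold enrichments were low, from 3.03 to 3.67, and those of the overlapping 7 d YAP peaks were 3.37 to 4.97. Outside the 5 domains of this kind (runs of at least 5 WT YAP peaks with gaps of at most 50 kb), 0 of 8561 members overlapped a 7 d YAP peak, which allows a share of up to 0.0350% by the limit of 3 counts of the total, and up to 0.0449% by the Wilson interval. For sustained peaks the share there was 526 of 22211 (2.37%), and 0.608% after weighting. In strength classes 1 to 7, where nearly all members fall, it was 0 of 8442 members against 133 of 16124 sustained peaks (0.825%).

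Motifs were counted within 100 bp of each summit. GGAATG was found at 1650 of 8565 members (19.3%, 18.4% to 20.1%). In windows of the same length shifted by 1000 bp to either side of the same summits the share was 10.3% (9.85% to 10.8%), and in windows centred on coding starts it was 8.23%. The members thus carried the motif 1.87 times as often as their own flanks. This ratio was 2.86 for sustained peaks (29.5% with the motif), 3.40 for late peaks (37.1%) and 4.75 for constitutive peaks (51.4%). The share in members minus that in sustained peaks was −10.2 points (−11.3 to −9.21). Minus that in late peaks it was −17.9 points (−19.1 to −16.6), not weighted for strength. Weighted to the members' strength classes, the difference from sustained peaks was −4.28 points (−5.45 to −3.11).

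Within strength classes the motif share of the members rose with peak strength, from 15.0% in class 1 to 22.4% in class 4, 27.4% in class 6 and 39.6% in class 8. In classes 1 to 3 the sustained shares were 22.7%, 21.9% and 21.8%, and the differences (members minus sustained) were −7.73 (−10.4 to −5.12), −5.66 (−8.23 to −3.09) and −4.20 points (−6.78 to −1.57). In class 5 the difference was −3.59 points (−6.74 to −0.258). The intervals of classes 4, 6, 7, 8 and 9 included 0, with differences of −1.44, −0.326, 5.24, 4.41 and −3.02 points. The last of these rest on few members and have wide intervals, such as −4.75 to 14.3 in class 8. Of the 10 strongest members, 5 had the motif, as did 37 of the strongest 100.

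The motif of the members was centred on the summit, at a lower height than in the other classes. Within 20 bp of the summit there were 3.30 motifs per 100 members in each 20 bp, against 1.03 at 300 to 500 bp, a ratio of 3.20. The ratio was 5.90 for sustained, 8.09 for late and 12.4 for constitutive peaks. At promoters 13.5% of the members had the motif and away from promoters 21.8%, and both were below the sustained shares of 22.0% and 33.1% (differences of −8.49, −10.1 to −6.83, and −11.3, −12.6 to −9.97). The median G and C content over all places was 48.3% in members and in sustained peaks. At promoters it was 52.7% and 54.2%, and away from promoters 46.8% and 46.3%.

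**Figure D2:**
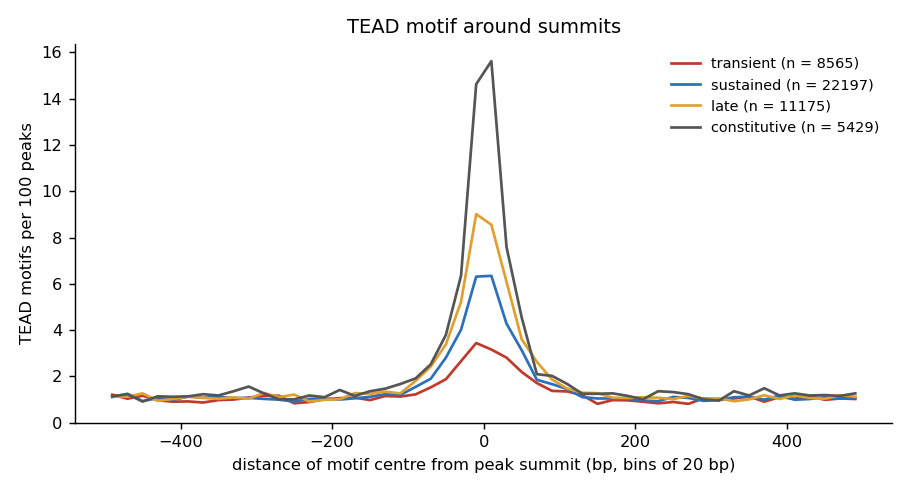
TEAD motifs (GGAATG, either strand) per 100 peaks in bins of 20 bp, against the distance of the motif centre from the summit in bp, for the transient, sustained, late and constitutive classes. All curves are near 1 motif per 100 peaks at the edges, and the transient curve has the lowest centre, at 3.30 on average within 20 bp of the summit.

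Another 9 motifs of liver, growth factor and promoter factors were compared in the same way. FOXA (TGTTTNC) was found at 21.6% of members against 16.9% of their flanks, CEBP (TTGCNNAA) at 13.2% against 8.30%, and HNF4 (AAGTCCA) at 5.28% against 3.06%. These letters were thus more frequent at the members than beside them, as they were at the sustained peaks. In windows of the same length centred on coding starts the shares were 11.4%, 5.59% and 2.73%. The difference from sustained peaks was −0.587 points for FOXA (−1.61 to 0.449), −1.98 for CEBP (−2.83 to −1.11) and −0.980 for HNF4 (−1.54 to −0.397). After weighting for strength it was −1.06 for CEBP (−2.05 to −0.0738) and −0.515 for HNF4 (−1.17 to 0.142). By place, the HNF4 difference was 0.310 (−0.558 to 1.27) at promoters and −1.62 (−2.32 to −0.883) away from them. AP-1 (TGANTCA), the element of the FOS and JUN factors, was at 5.43% of the members at 5.66% of their flanks and at 4.03% of coding-start windows. Its share was higher in sustained peaks, at 7.42% (difference −1.99, −2.57 to −1.39, and −2.00 after weighting), and in late peaks, at 11.2% (difference −5.82, −6.57 to −5.06, not weighted).

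Promoter elements were also compared. ETS (CCGGAAG) was at 2.97% of the members and NFY (CCAATCA) at 2.95%, with differences from sustained peaks of −0.612 points (−1.03 to −0.163) and −1.19 points (−1.62 to −0.729). Both intervals stayed below 0 after weighting. By place, the ETS difference was −1.79 points (−2.94 to −0.551) at promoters and 0.0843 (−0.207 to 0.417) away from them. The interval of NFY was below 0 in both places. The ETS letters share GGAA with the TEAD motif but cannot match at the same place. The motif of CTCF, the insulator factor, was the one motif of the 9 with a higher share in members, 3.93% against 3.37%, by 0.565 points (0.103 to 1.05), but after weighting the difference was 0.291 (−0.259 to 0.840). For the E-box (CACGTG) and the palindrome of NRF1 the differences were −0.154 (−0.661 to 0.378) and −0.0143 (−0.125 to 0.125). The E-box value joins −1.53 (−2.48 to −0.487) at promoters and 0.506 (−0.0786 to 1.13) away from them. At coding-start windows the shares were 8.28% for ETS, 4.54% for NFY, 1.60% for CTCF, 4.94% for the E-box and 0.760% for NRF1. A match to these letters is a description of the sequence and not evidence of binding.

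**Figure D3:**
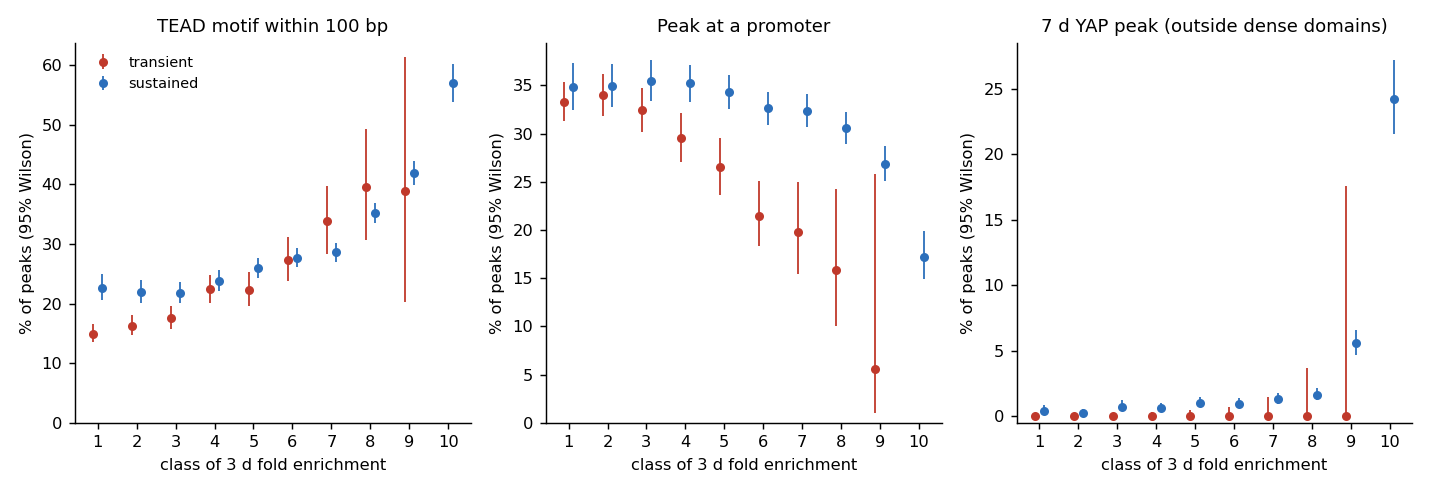
Percentage of transient and sustained 3 d TEAD peaks with a TEAD motif within 100 bp of the summit (left), at a promoter (middle) and with a 7 d YAP peak outside the YAP-dense domains (right), in each of 10 classes of 3 d fold enrichment (x axis, 1 weakest), with 95% Wilson intervals. Motif shares of the members are lower, with an interval of the difference below 0, in classes 1 to 3 and 5. Promoter shares of the members fall from 33.3% to 1 of 18, and no member has a YAP peak in any class.

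At the level of genes, 2439 of 22350 protein-coding genes (10.9%) had a transient peak at a promoter and 7292 (32.6%) had one within 20 kb of the gene. For 1294 of the 2439 genes (53.1%) another TEAD peak was called at a promoter of the gene at 7 d, and for 296 in WT livers. The remaining 1145 (46.9%) had no TEAD promoter peak at 7 d. They were nearly all of the 1158 genes that had some 3 d TEAD promoter peak and none at 7 d (13.3% of 8694), which the definition of a transient peak largely fixes.

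The 14 gene lists, chosen with earlier results of these data known, are described by their counts beside the 10.9% of all coding genes. A transient promoter peak requires a TEAD promoter peak at 3 d. Of all coding genes, 8694 had such a 3 d peak, and 2439 of these had a transient one. None of 25 YAP and TEAD target genes and none of 19 biliary and progenitor genes had a transient promoter peak, although 13 and 7 of them had a TEAD promoter peak at 3 d. Within 20 kb of the gene, 11 of the 25 (44%) and 4 of the 19 (21.1%) had a transient peak, against 32.6% of all coding genes. At Ctgf and Cyr61, which encode matrix proteins and are standard readouts of YAP, 1 of 2 and 0 of 6 TEAD peaks at 3 d within 20 kb were transient.

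Of 20 hepatocyte transcription factors, 8 (40%) had a transient promoter peak, among them Cebpa, Creb3l3, Foxa1, Foxa3, Nr1h4, Nr1i3 and Rxra. Of the same list, 18 had some TEAD promoter peak at 3 d and 16 had one at 7 d. Rxra, the common partner of nuclear receptors, had a transient peak 1779 bp upstream of a start, with a pileup of 35 fragments and a fold enrichment of 5.75, and a 7 d TEAD peak was present at a promoter of the gene. The promoter of Cebpa, which encodes C/EBP alpha, held a member 272 bp upstream of its start with a fold enrichment of 4.76, and no 7 d promoter peak was called.

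Of the 25 annotated genes in a list of 26 for cholesterol synthesis and its control, 9 (36%) had a transient promoter peak: Cyp51, Insig2, Lss, Mvd, Sc4mol, Sc5d, Sqle, Srebf1 and Tm7sf2. Insig2, which retains the SREBP cleavage complex in the endoplasmic reticulum, had the strongest, 70 bp from its start, with a fold enrichment of 5.91. Mvd, mevalonate diphosphate decarboxylase, and Srebf1, the gene of the SREBP1 factor, had members with fold enrichments of 5.42 and 4.70. For these 3 genes a promoter peak was also called at 7 d, as for 4 of the 9 in all. The counts of both lists stand above the share of all coding genes. Of their genes, 18 of 20 and 23 of 25 had a TEAD promoter peak of some class at 3 d, against 38.9% of all coding genes. Among genes with such a peak, 8 of 18 and 9 of 23 had a transient one, against 2439 of 8694 of all coding genes. By that comparison both counts were also higher, but they rest on few genes.

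Of 19 hepatocyte product genes, all of which had a TEAD promoter peak at 3 d, 5 (26.3%) had a transient one: Cyp7a1, described above, Ass1 and Tat of amino acid and urea metabolism, Hpd of tyrosine breakdown and Tdo2 of tryptophan breakdown. Among all coding genes with a TEAD promoter peak at 3 d, the count was 2439 of 8694. By that comparison the list did not stand above other genes. Ass1 and Hpd had fold enrichments of 4.10 and 3.93. Neither had a promoter peak at 7 d.

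The Hippo pathway list had 7 of 30 genes (23.3%) with a transient promoter peak: Amot, Mob1b, Nf2, Taok3, Tead1, Vgll4 and Wwc2. Of the 30 genes, 18 had a TEAD promoter peak at 3 d. At Amot, an angiomotin that binds YAP, a member 37 bp upstream of the start had a pileup of 34 fragments and a fold enrichment of 5.58, with no promoter peak at 7 d. Mob1b, the cofactor of the LATS kinases, had 2 members, the stronger with a fold enrichment of 4.86, and no 7 d promoter peak either. Wwc2, a KIBRA family scaffold, had one with a fold enrichment of 4.76 and kept other promoter peaks at 7 d and in WT livers.

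Of 23 immediate early and AP-1 genes, 19 had a TEAD promoter peak at 3 d. A transient one was found at 6 (26.1%), namely Dusp1, Fosb, Ier2, Jun, Klf2 and Klf6, and 5 of the 6 had another promoter peak at 7 d. The exception was Klf2, a flow-responsive Krüppel-like factor, with a fold enrichment of 4.76. Klf6 and Dusp1, a MAP kinase phosphatase, had fold enrichments of 4.76 and 4.60 at 17 and 249 bp from a 7 d peak. Of 26 actin and junction genes, 19 had a TEAD promoter peak at 3 d. A transient one was found at 6 (23.1%), with Ctnnd1 (p120 catenin), Itgb5 (an integrin chain) and Tpm1 (tropomyosin) at 4.76, 4.76 and 4.60, and Actb and Tagln were also among the 6. The cell cycle list had 5 of 36 (13.9%), close to the 10.9% of all coding genes, and 22 of the 36 had a TEAD promoter peak at 3 d. Ccne1 (cyclin E1) had a fold enrichment of 5.75 without a promoter peak at 7 d, and Ccnd3 (cyclin D3) and Cdkn1b (the p27 inhibitor) had 4.92 and 3.78 with one. The others were Cdk1 and Rbl1.

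Of 29 cytokine, chemokine and NF-kB genes, 13 had a TEAD promoter peak at 3 d. A transient one was found at 1, Irf1, an interferon regulatory factor, with a fold enrichment of 4.27. Among markers of other liver cell types, 1 of 9 endothelial genes had one (Tek, the angiopoietin receptor, with a fold enrichment of 5.01), and 0 of 8 macrophage, 0 of 8 stellate cell and 0 of 8 lymphocyte genes. Of the 9 endothelial genes, 2 had a TEAD promoter peak of any class at 3 d. No macrophage, stellate cell or lymphocyte gene of the lists had one, so their transient counts could only be 0.

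**Figure D4:**
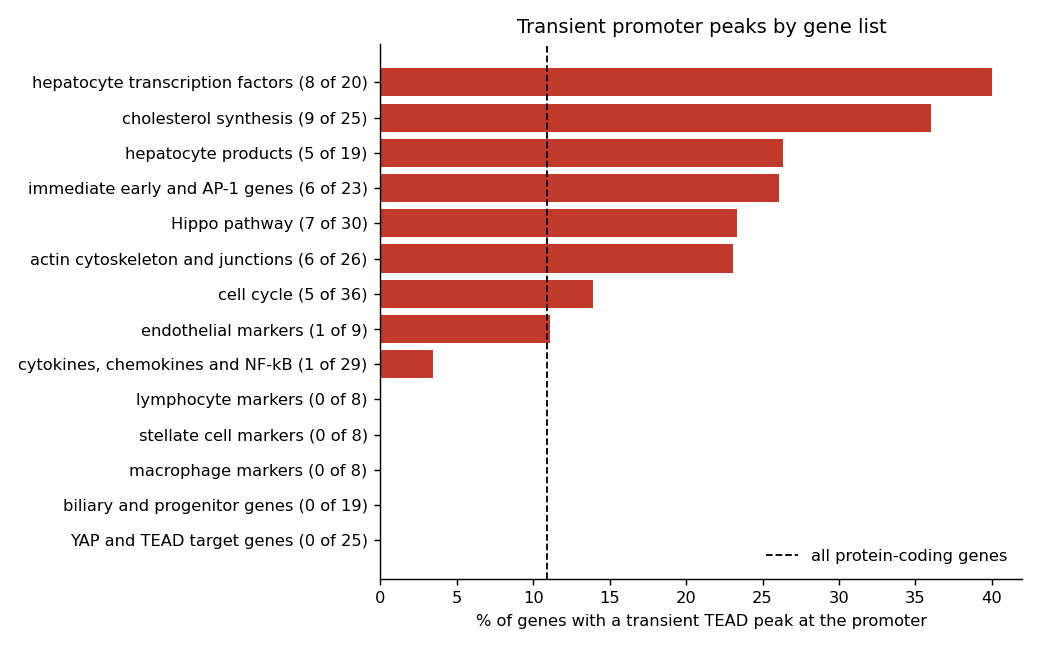
Percentage of the genes of each list with a transient TEAD peak at a promoter (bars, with counts in the labels). The dashed line is the share of all protein-coding genes, 10.9%; hepatocyte transcription factors and cholesterol synthesis have the highest shares, 40% and 36%.

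Along the genome, 5942 members (69.4%) had no other member within 10 kb. The others formed 885 runs of 2, 168 runs of 3 and 76 runs of 4 or more. The run with most members, 9 in 18.5 kb (chromosome 4, 150225175 to 150243713), covered Errfi1, a feedback inhibitor of the EGF receptor. Their summits were at −2669 to 15184 bp from the gene start, with fold enrichments of 2.94 to 5.42. The strongest peak of the run at 3 d was not a member: the peak over the start itself, with a fold enrichment of 9.71, was sustained. In total the stretch held 12 TEAD peaks at 3 d, 5 at 7 d and 1 in WT livers, and 2 of the 5 at 7 d were late peaks between the members. None of the 9 members had the TEAD motif within 100 bp of the summit.

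The next run covered Pck1, the gluconeogenic enzyme phosphoenolpyruvate carboxykinase, with 8 members in 19.4 kb (chromosome 2, 172963911 to 172983270). Here 4 members were inside the gene and 4 upstream, with fold enrichments of 3.30 to 5.75. The stretch also held 5 sustained peaks, at −9312 to −351 bp from the gene start. The 3 d fold enrichments of those 5 were 3.59 to 7.98. Inside the run, therefore, every 7 d peak belonged to a site already called at 3 d, and none lay in the part of the gene where the members were. None of the 8 members had the motif. Of 3 runs of 7 members, the one described here, of 29.8 kb, was in Itpr1, an inositol trisphosphate receptor, more than 200 kb from the gene start. The members had fold enrichments of 3.49 to 4.60, and 3 sustained peaks among them had 8.55, 3.83 and 10.83. The motif was found at 2 of the 7 members.

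**Figure D5:**
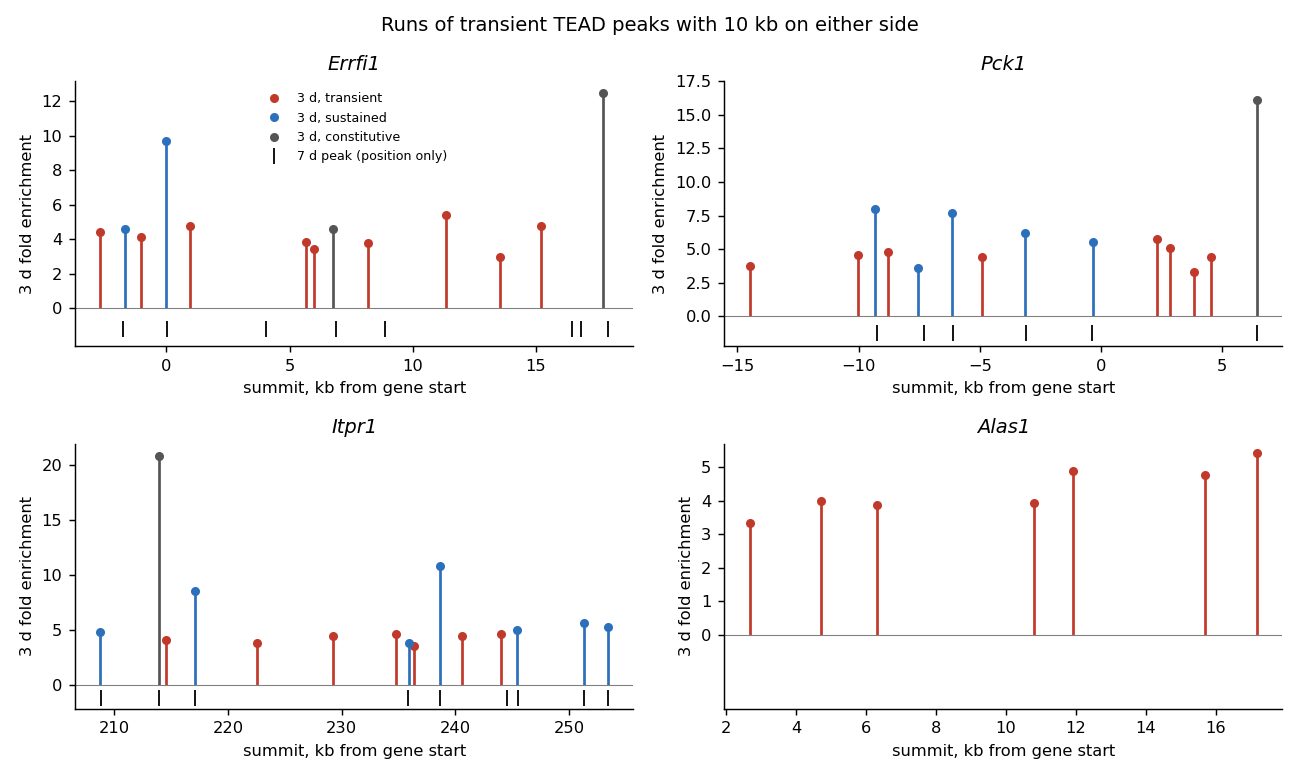
TEAD peaks at 3 d (stems, height is the fold enrichment in the 3 d list) and positions of 7 d TEAD peaks (black ticks, no height) over 4 runs of transient peaks with 10 kb on either side; x axis, summit position in kb from the gene start in the direction of transcription. At Errfi1, Pck1 and Itpr1 the members are interspersed with sustained or constitutive peaks, the tallest of which exceed every member, and at Alas1 all 7 peaks at 3 d are transient and no 7 d peak is present.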

How the data were processed

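Peak lists of TEAD and YAP ChIP-seq from mouse liver were analysed. The authors aligned reads to mm9 with BWA 0.6.2, merged the replicates of each of the 6 groups (19 samples) and called peaks with MACS2 2.0.9 at a p-value of 1e-05 against 1 control of 167176362 tags from previously published data. The deposited pileup is a signal, the number of fragments over the summit. The deposited fold enrichment is the ratio of pileup to local background. Significance was deposited as a −log10 p-value and, adjusted over peaks, as a −log10 q-value.

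Overlaps, Wilson and Newcombe intervals (95%), shares weighted to the members' 10 strength classes, Poisson p-values and motif counts were computed with Python 3.11.15, NumPy 2.4.6, SciPy 1.17.1 and pandas 2.3.3, and tested on simulated data. Genes and sequence came from GENCODE and the NCBIM37 assembly, the same build as mm9. Of 8568 members, 3 on unplaced sequence were left out of steps that need them.

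Members, lists and tests were chosen with earlier results of these data known. Regions named were the 10 members with the highest −log10 p-value, the 8 highest at other coding promoters, members with a 7 d YAP peak, up to 3 genes per list with the highest value at a promoter, 3 regions on each side of the threshold and 3 runs with most members (gaps of at most 10 kb), where the runs at Itpr1, Tat and Alas1 tied for the last place with 7 members each. Some genes counted in the lists are not reported here by name. Other genes of a list are named beside its count, and Ctgf and Cyr61 were chosen as known targets. Alternatives covered overlap, thresholds, peak widths, promoter and motif windows, and weighting.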

Additional observations from a re-analysis of the deposited data

How the results depend on the processing

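No paired analysis was possible because the authors merged the replicates before calling peaks, so that 1 list stands for each group. For the same reason no replicate could be left out. Of 78 alternatives, 64 kept the direction and the side of the threshold (or, for counts, stayed within 1.5 times). For the share expected to pass at the 7 d depth, the criterion was a value within the main Wilson interval. The number of members was 4611 with a −log10 p-value of at least 10 in the 3 d list only and 1815 with at least 5-fold enrichment, both by construction since weaker peaks were removed, and between 6441 and 12794 otherwise. The share expected to pass at the 7 d depth was 97.4% with summits at most 100 bp apart and 100% under the stricter thresholds. The promoter difference was −0.269 points with 50% of the shorter peak, −1.03 with windows of 400 bp, 0.0955 with a −log10 p-value of at least 10 in all TEAD lists and 4.75 with summits at most 100 bp apart. The cause was not tested. Differences in YAP overlap (−3.32 to −0.575) and in the TEAD motif (−14.0 to −4.17) kept their sign and intervals below 0 in every alternative, including the one outside the YAP-dense domains, which was chosen after seeing the data (−2.37). For YAP, the classes still differed by the 7 d TEAD call in each of them. Weighting moved HNF4 to −0.515 and CTCF to 0.291. With windows of 50 bp on either side, CTCF was 0.211 and NRF1 changed sign, to 0.00413.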

Other observations

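A pair of runs tied with that of Itpr1 at 7 members, and they and the next run are named here after their values were seen. Alas1, the rate-limiting enzyme of haem synthesis in the liver, had 7 members in 14.7 kb, with fold enrichments of 3.34 to 5.42. All 7 TEAD peaks called there at 3 d were transient, and none was called at 7 d or in WT livers. The TEAD motif was found at 3 of the 7. A run around Tat, tyrosine aminotransferase, had 7 members among 15 TEAD peaks at 3 d and 8 at 7 d, and a run in Cps1, the first enzyme of the urea cycle, had 6 members among 7 peaks at 3 d, with 1 TEAD peak at 7 d.

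Transient peaks were a smaller share of 3 d TEAD peaks on the X chromosome, 53 of 363 (14.6%), than on the autosomes, 8512 of 36057 (23.6%), a difference of −9.01 percentage points (Newcombe interval −12.3 to −4.98). After weighting to the strength classes of the X peaks the difference was −6.48 (−10.1 to −2.83). Autosomes ranged from 22.3% (chromosome 8) to 25.8% (chromosome 16). Late peaks were 308 of 616 peaks at 7 d on X (50%) and 28.4% on the autosomes. This pattern was noticed in the data, and its cause was not tested.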
